A study of Mus musculus with 6 samples.

Results

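Condensins, topoisomerase IIα and Ki-67 shape mitotic chromosomes, and 10 genes that encode them were followed here in mouse keratinocytes with and without iASPP. The genes were chosen by name, with earlier results of these data known. They were Smc2 and Smc4, the condensin I subunits Ncapd2, Ncapg and Ncaph, the condensin II subunits Ncapd3, Ncapg2 and Ncaph2, Top2a, and Mki67, the gene of Ki-67. All 10 were among the 55367 gene names counted and among the 14916 with enough reads to test. The bulk RNA-seq came from 3 batches of primary keratinocytes from the skin of newborn Ppp1r13l flox/flox;Cre+ERT mice on a mixed C57BL/6 and 129/Sv background. Each batch gave 1 culture with tamoxifen (iASPP KO) and 1 without (iASPP WT), so that 6 libraries formed 3 pairs. Ppp1r13l encodes iASPP, an inhibitor of p53 family transcription factors. Tamoxifen activates the Cre-ERT recombinase, which deletes the floxed part of Ppp1r13l, so reads of the rest of the gene can still be counted. By staining, the study found iASPP protein absent after tamoxifen.

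All cultures of both groups carried the floxed alleles and Cre-ERT, knocked into the Gt(ROSA)26Sor locus, and grew in low-calcium medium, which keeps keratinocytes proliferating. Tamoxifen was added, or left out, at a change of medium 24 h into culture, and cells were collected several days later. The concentration is 1 mM in the labels and 1 μM in the study's methods. No culture had tamoxifen without the deletion, so the effect of the drug and that of iASPP loss cannot be told apart. RNA was depleted of ribosomal RNA and read as single 42-base reads, and libraries held 20202517 to 25157117 counts. Ppp1r13l had 320, 395 and 139 counts in iASPP KO (batches 1, 2 and 3, the order used throughout) against 697, 1100 and 472 in iASPP WT, and its log2 fold change was −1.45 ± 0.18 (SE, n = 3 pairs, edgeR adjusted p = 0.0030), with 36.6% of the WT level left. The basal keratinocyte genes Krt5, Krt14, Krt15, Trp63, Itga6, Itgb4 and Cdh1 summed to 21288 to 24569 CPM (counts scaled to library size) in KO and 21720 to 24027 in WT libraries. Krt14 and Krt5 held most of these sums. Of the 7 genes, 0 were lower and 0 higher at an edgeR adjusted p under 0.05. Krt15, at 11.1 CPM on average in KO and 4.17 in WT, was higher at an unadjusted p only (log2 fold change 1.09 ± 0.36, SE, adjusted p = 0.14).

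Condensins are ring-shaped motors that extrude loops of DNA and compact chromosomes for division. Condensin I and condensin II share the ATPases SMC2 and SMC4 and differ in the kleisin that closes the ring (CAP-H or CAP-H2) and in a pair of HEAT-repeat subunits (CAP-D2 and CAP-G, or CAP-D3 and CAP-G2). Condensin II is nuclear throughout interphase, whereas condensin I mostly reaches chromosomes once the nuclear envelope has broken down. Topoisomerase IIα, made from Top2a, passes 1 DNA duplex through another and untangles sister chromatids. Ki-67 coats mitotic chromosomes and keeps them apart, and is the usual stain for cycling cells, which in epidermis lie mainly in the basal layer.

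The starts of these genes are shown first, because many genes of the late cell cycle carry the same short motifs there. The CHR element (searched as TTTGAA or TTCGAA) is bound by the MuvB core of the DREAM and B-MYB complexes, the CCAAT box (CCAAT) by NF-Y, and the E2F site (TTTCCCGC, TTTCGCGC, TTTGCCGC or TTTGGCGC) by E2F factors. Both strands were searched from 250 bases before to 30 bases after the RefSeq transcription start (GRCm38.p6), and none of the 3 motifs contains another. Of the 10 genes, 9 had an entry, and Smc4 had none. The 5 windows below run 5′ to 3′ on the gene's strand, with matches on either strand in capitals. Mki67 and Top2a are shown for their repeated CHR and CCAAT matches, Ncapd2 and Ncapg2 for their E2F matches, and Ncaph2 because its RNA did not pass the test that the others passed.
Mki67: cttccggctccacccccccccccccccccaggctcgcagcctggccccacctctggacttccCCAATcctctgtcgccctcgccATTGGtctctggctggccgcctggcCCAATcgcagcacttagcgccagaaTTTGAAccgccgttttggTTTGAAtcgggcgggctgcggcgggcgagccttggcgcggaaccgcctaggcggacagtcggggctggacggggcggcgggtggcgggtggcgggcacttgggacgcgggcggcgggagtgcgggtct
Top2a: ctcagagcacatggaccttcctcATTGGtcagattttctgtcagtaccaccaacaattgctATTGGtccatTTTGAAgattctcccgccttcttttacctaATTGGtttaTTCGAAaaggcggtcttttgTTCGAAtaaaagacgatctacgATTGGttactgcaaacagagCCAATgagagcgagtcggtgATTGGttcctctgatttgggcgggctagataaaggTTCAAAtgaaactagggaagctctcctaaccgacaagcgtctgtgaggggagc
Ncapd2: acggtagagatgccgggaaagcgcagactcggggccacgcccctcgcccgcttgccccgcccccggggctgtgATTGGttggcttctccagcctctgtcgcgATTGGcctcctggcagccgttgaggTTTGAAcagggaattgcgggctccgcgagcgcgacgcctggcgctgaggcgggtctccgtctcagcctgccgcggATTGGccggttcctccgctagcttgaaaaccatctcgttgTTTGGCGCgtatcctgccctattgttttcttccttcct
Ncapg2: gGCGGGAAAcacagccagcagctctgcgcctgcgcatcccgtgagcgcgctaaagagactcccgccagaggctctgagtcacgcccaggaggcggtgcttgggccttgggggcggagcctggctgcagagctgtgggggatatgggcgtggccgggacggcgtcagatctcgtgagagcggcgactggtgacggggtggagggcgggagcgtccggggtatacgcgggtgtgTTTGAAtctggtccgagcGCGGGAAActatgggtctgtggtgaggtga
Ncaph2: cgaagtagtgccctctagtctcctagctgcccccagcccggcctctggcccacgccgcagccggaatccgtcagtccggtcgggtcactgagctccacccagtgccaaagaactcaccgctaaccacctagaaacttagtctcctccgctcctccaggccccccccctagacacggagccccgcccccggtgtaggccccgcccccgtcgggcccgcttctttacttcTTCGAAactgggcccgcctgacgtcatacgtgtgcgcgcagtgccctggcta

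Mki67 (chr7:135716350-135716629, minus strand) held 2 CHR and 3 CCAAT matches. Top2a (chr11:99024160-99024439, minus strand) held 4 CHR and 6 CCAAT matches, and 5 or more CCAAT matches were held by 0.259% of all 32851 promoters in the table, 0.468% of those of tested genes and 1.98% of those of genes lower in KO. Ncapd2 (chr6:125191557-125191836, minus strand) held matches to all 3 motifs, with 1 CHR, 3 CCAAT and 1 E2F match. Ncapg2 (chr12:116405186-116405465, plus strand) held 1 CHR and 2 E2F matches but no CCAAT match. Ncaph2 (chr15:89355469-89355748, plus strand) held 1 CHR match and neither of the other motifs.

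In total, 7 of the 9 genes with an entry held a CHR match, 5 a CCAAT match and 2 an E2F match. The shares among all promoters of that length were 18.4%, 36.1% and 2.12%, and among promoters of tested genes 13.4%, 36.8% and 3.66%. Among promoters of the genes lower in KO, which include 8 of these 9, they were 28.1%, 50.2% and 9.90%. Ncapg and Smc2 each had 1 CHR and 1 CCAAT match. Ncaph and Ncapd3 had no match to any of the 3, which says only that these letters are not in these windows. Ncapd3 had 2 entries, and only the 1 nearest the start of the counted gene was searched. The RefSeq start used for Ncapd2 lay 115 bases downstream of the start of the counted gene. The plot of motif positions shows that the CHR matches of Ncapg, Ncapg2, Ncaph2 and Top2a included 1 within 30 bases before the start.

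**Figure D1:**
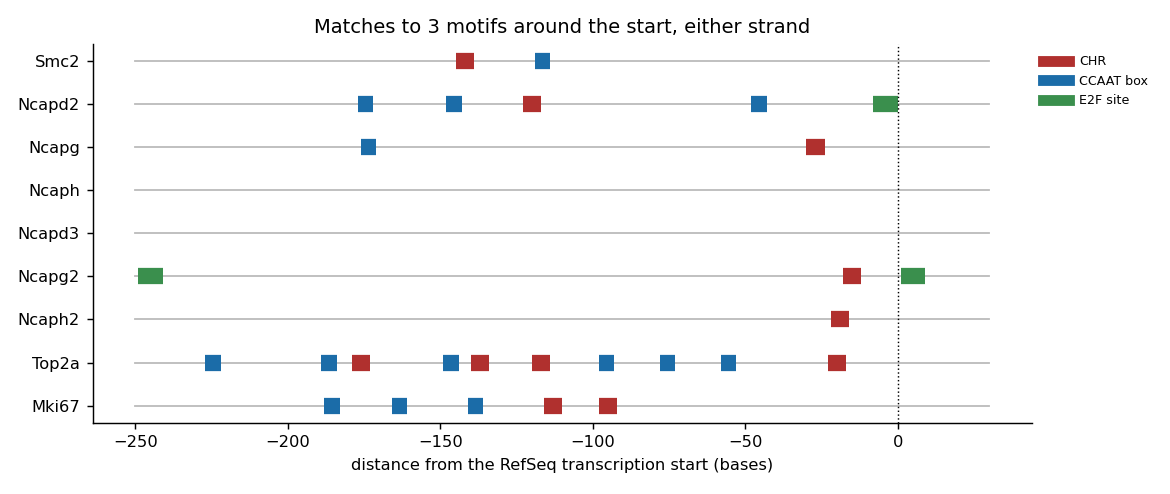
Positions of CHR (red), CCAAT (blue) and E2F (green) matches in the 9 promoters that had an entry, in bases from the RefSeq transcription start (dotted line), with the searched window as a grey line. Top2a holds 4 CHR and 6 CCAAT matches, and Ncaph and Ncapd3 hold none.

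To ask how loss of iASPP affected this group, KO and WT cultures were compared within batches. RNA of 9 of the 10 genes was lower in iASPP KO, with log2 fold changes of −1.37 to −0.67, and Ncaph2 did not pass the test. Mki67 fell most, to 38.7% of its WT level, and Ncapd3 least among the 9, to 63.1%. At an adjusted p threshold of 0.05 (edgeR quasi-likelihood test with batch in the model, adjusted over all tested genes), 9 of 10 were lower and 0 higher, where 1.95% of all tested genes were lower and 2.17% higher. Unadjusted p values under 0.05 gave 9 lower and 0 higher (8.09% and 8.66% of all tested genes), as did DESeq2's adjusted p values (3.38% and 3.98% of the 12121 genes to which it gave one). The median log2 fold change of the 10 genes was −1.09, and that of all tested genes was 0.01. Because the 10 were chosen with earlier results of these data known, these comparisons with all tested genes are descriptions, not independent support. The same 9 genes were lower in KO in all 3 batches, as were 19.5% of all tested genes. With batch 1 left out, Ncaph, Ncapd3, Smc2 and Smc4 no longer passed and 5 genes remained. Without batch in the model, 0 of 10 passed, 2 of them with an unadjusted p under 0.05.

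Batch 3 stood apart in level. Summed over the 9 genes other than Ncaph2, KO libraries of batches 1, 2 and 3 had 188, 204 and 572 CPM, and WT libraries had 491, 367 and 1039 CPM. Both batch 3 libraries were high, and the batch 3 KO library lay above the WT libraries of batches 1 and 2. For 0 of the 10 genes did the KO and WT ranges lie apart, where 5.46% of all tested genes had all KO libraries below all WT libraries, although KO was lower within batch for 9, 10 and 10 genes in batches 1, 2 and 3. Counts per gene and library ran from 147 (Ncaph, KO, batch 1) to 8441 (Top2a, WT, batch 3). All 30 within-batch ratios had a 95% counting interval that left out 1. That includes Ncaph2, whose ratio was above 1 in batch 1 and below 1 in batches 2 and 3. These intervals cover counting error with 1 library a side, not the spread between cultures. The share of all tested genes whose intervals do the same was not computed. In this bulk RNA, fewer cycling cells and less of these RNAs per cell cannot be told apart. The panels of paired levels show each culture beside its partner.

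**Figure D2:**
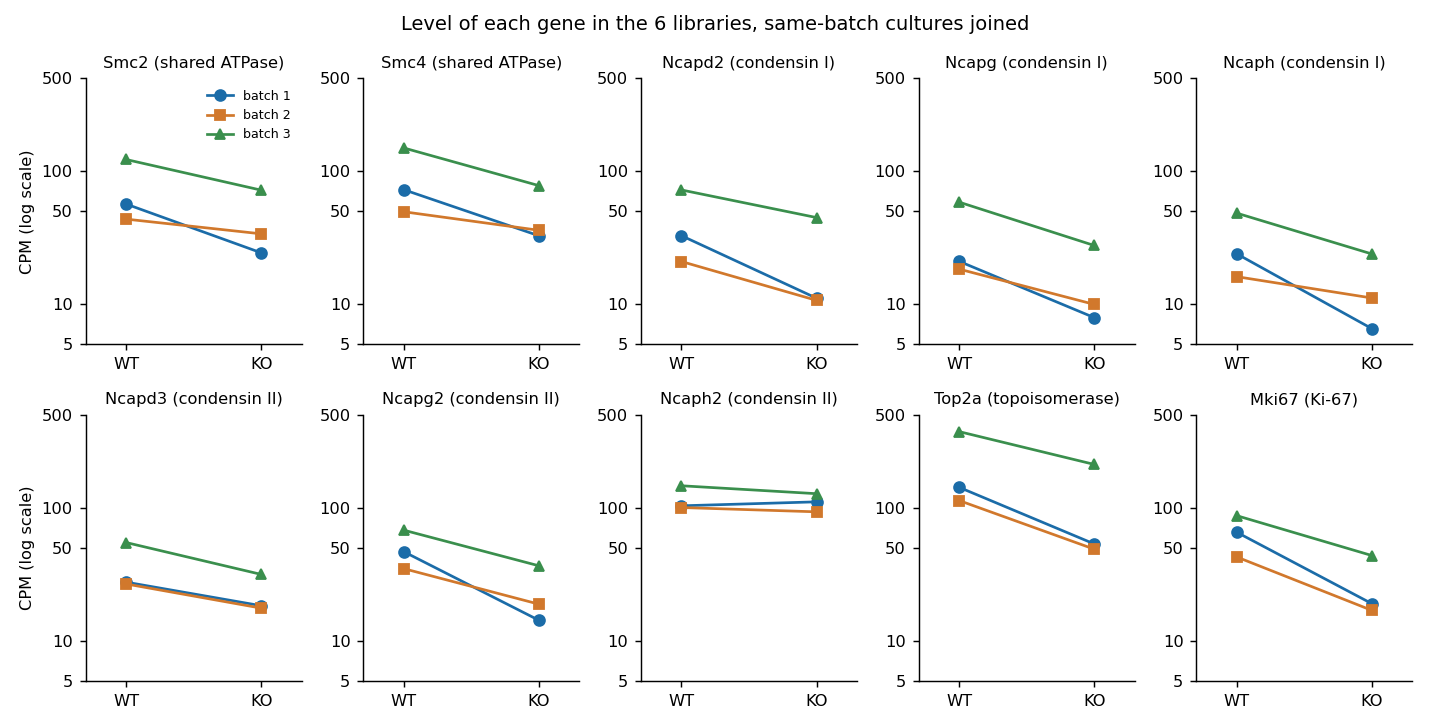
Level of each gene in CPM (log axis) in the iASPP WT and iASPP KO culture of batch 1 (blue circles), batch 2 (orange squares) and batch 3 (green triangles), with cultures of the same batch joined and 1 library per point. Lines fall from WT to KO in all 3 batches for every gene except Ncaph2, and batch 3 is highest in both groups.

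Smc2 and Smc4 form the arms and ATPase heads of both condensins. Smc2 (chr4:52439243-52488260, plus strand, GRCm38, as all positions here) had 24.4, 33.8 and 72.1 CPM in KO and 56.7, 43.7 and 123 CPM in WT. It fell by 0.78 ± 0.16 on the log2 scale (SE, n = 3 pairs, edgeR adjusted p = 0.027), and its fall was smallest in batch 2, where KO kept 77.5% of the WT level (95% counting interval of the ratio 0.705 to 0.851). Smc4 (chr3:69004738-69034623, plus strand), its obligate partner, had 32.7, 36.0 and 78.0 CPM in KO and 72.8, 49.6 and 150.0 CPM in WT. It fell by 0.85 ± 0.15 (adjusted p = 0.013), again least in batch 2 (72.5% of WT). Per kilobase of exon, the ratio of Smc4 to Smc2 was 1.41, 1.12 and 1.14 in KO and 1.35, 1.19 and 1.28 in WT, higher in KO in batch 1 and lower in batches 2 and 3.

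The condensin I subunits all fell. Ncapd2 (chr6:125168007-125191701, minus strand), a HEAT-repeat subunit, had 11.1, 10.7 and 44.9 CPM in KO and 32.8, 21.0 and 72.4 CPM in WT and fell by 1.07 ± 0.19 on the log2 scale (SE, n = 3 pairs, edgeR adjusted p = 0.014). Ncapg (chr5:45669919-45700546, plus strand), the other HEAT-repeat subunit, had 7.93, 9.97 and 27.7 CPM in KO and 21.0, 18.4 and 58.7 CPM in WT and fell by 1.12 ± 0.17 (adjusted p = 0.0079). In each batch KO kept 37.7%, 54.2% and 47.2% of the WT level of Ncapg. Ncaph (chr2:127103809-127133954, minus strand), the condensin I kleisin, had 6.55, 11.1 and 23.9 CPM in KO and 23.9, 16.1 and 48.5 CPM in WT. It fell by 1.13 ± 0.24 (adjusted p = 0.029), with the largest standard error of the 10 genes. Its KO level was 27.3% of WT in batch 1 and 69.1% in batch 2, and their counting intervals (ratios of 0.226 to 0.329 and 0.587 to 0.812) did not overlap. Summed, condensin I subunits had 25.6, 31.8 and 96.4 CPM in KO and 77.8, 55.5 and 180 CPM in WT.

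Of the condensin II subunits, Ncapd3 and Ncapg2 fell and Ncaph2 did not pass the test. Ncapd3 (chr9:27030175-27095315, plus strand), a HEAT-repeat subunit, had 18.4, 17.6 and 31.7 CPM in KO and 27.7, 26.8 and 55.0 CPM in WT and fell by 0.67 ± 0.15 on the log2 scale (SE, n = 3 pairs, edgeR adjusted p = 0.036). Its KO level was even across batches, at 66.4%, 65.8% and 57.5% of WT, yet it lost its call without batch 1 or without batch 2 (adjusted p = 0.11 and 0.15). Ncapg2 (chr12:116405402-116463731, plus strand), its HEAT-repeat partner, had 14.3, 18.9 and 36.8 CPM in KO and 46.9, 35.0 and 68.1 CPM in WT and fell by 1.16 ± 0.19 (adjusted p = 0.0092). Batch 1 was lowest, with 30.5% of WT against 54.0% and 53.9% in batches 2 and 3.

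Ncaph2 (chr15:89355719-89372826, plus strand), the condensin II kleisin, had 111, 93.6 and 128 CPM in KO and 104, 101 and 147 CPM in WT. KO was above WT in batch 1 and below it in batches 2 and 3, and the groups overlapped. The log2 fold change was −0.07 ± 0.12 (SE, n = 3 pairs, edgeR adjusted p = 0.83) with a 95% interval of −0.33 to 0.19, so a fall of the size estimated for any of the other 9 genes lies outside it. Per kilobase, the ratio of Ncapg2 to Ncaph2 was 0.0543, 0.0853 and 0.121 in KO and 0.191, 0.147 and 0.196 in WT, lower in KO in 3 of 3 batches. That ratio was given no test, since an exact permutation test on 3 pairs cannot go below a two-sided p of 0.25. The Ncaph2 counts are less certain than the rest. Exons of Sco2 and Tymp on the opposite strand overlap 19.7% of its exonic bases, although reads were counted by strand, and 10.8% of the 42-base windows of its longest transcript also occur in Gm7535 or Gm8363. In no other gene of the 10 did windows shared with genes elsewhere exceed 1%. Opposite-strand exons of Lcorl overlap 13.4% of Ncapg, and same-strand small or predicted genes overlap 3.78% of Ncapd2 and 1.35% of Top2a.

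Top2a (chr11:98992943-99024189, minus strand) had 53.7, 49.0 and 213 CPM in KO and 143, 114 and 376 CPM in WT. It fell by 1.15 ± 0.13 on the log2 scale (SE, n = 3 pairs, edgeR adjusted p = 0.0022), with KO at 37.5%, 43.0% and 56.6% of WT in batches 1, 2 and 3. Mki67 (chr7:135689784-135716361, minus strand) had 19.1, 17.0 and 43.9 CPM in KO and 65.7, 42.8 and 87.6 CPM in WT. It fell by 1.37 ± 0.17 (adjusted p = 0.0027), to 29.0%, 39.6% and 50.1% of the WT level. Both genes fell most in batch 1 and least in batch 3, the batch with the highest levels. Top2a and Mki67 kept their calls whichever batch was left out, as did Ncapd2, Ncapg and Ncapg2. The plot of fold changes sets the pooled estimates beside the batches.

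**Figure D3:**
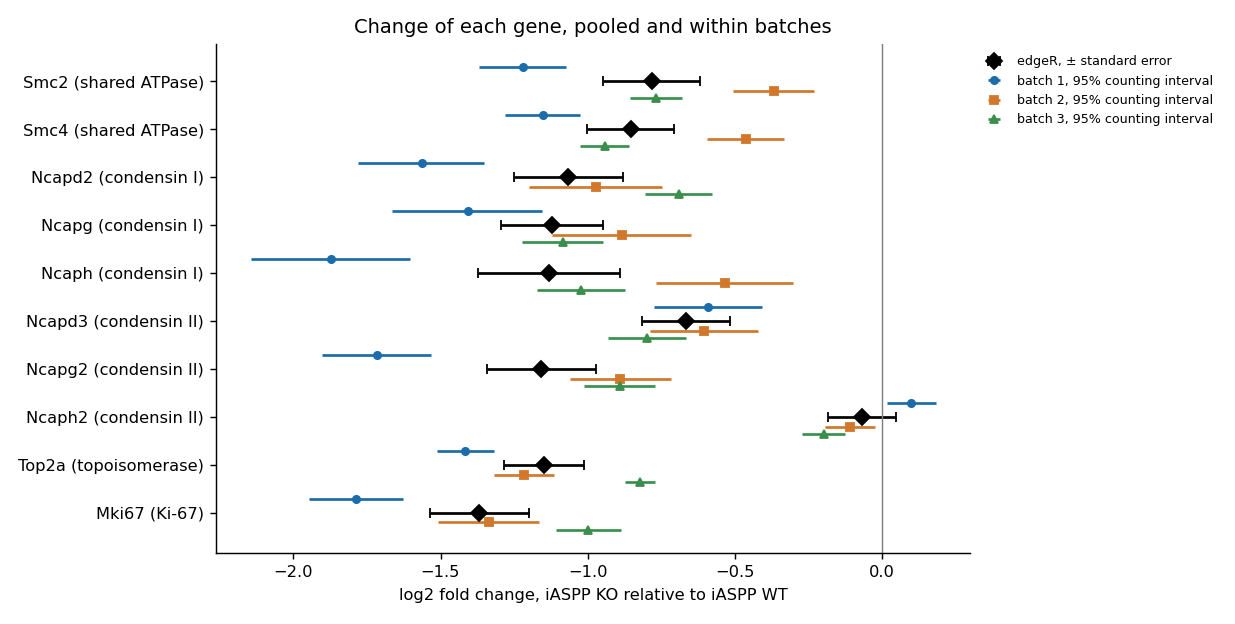
Log2 fold change of each gene, iASPP KO relative to iASPP WT, as the edgeR estimate ± standard error (black diamonds, n = 3 pairs) and as the CPM ratio within batch 1, 2 and 3 with 95% counting intervals (blue circles, orange squares, green triangles). Estimates run from −1.37 for Mki67 to −0.67 for Ncapd3, and Ncaph2 lies at −0.07 with its batches on both sides of 0.

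To compare levels between genes, CPM were divided by exon length in kilobases, which takes in every annotated exonic base of a gene. The longest transcript fell short of it unevenly, with 4684 of 9939 bases for Ncapg2 but 10061 of 10061 for Mki67. The order below holds for exon length only, and an order by transcript length was not made. In WT, Ncaph2 (27.9 ± 6.16 CPM per kb, SD, n = 3) and Top2a (23.4 ± 15.9) stood highest and did not differ beyond their spread. Smc4 (17.4 ± 10.1) and Smc2 (13.6 ± 7.74) followed, each lower than the gene above it in 3 of 3 libraries. Ncaph (6.85 ± 3.92), Ncapd2 (6.71 ± 4.30) and Mki67 (6.50 ± 2.23) were level with each other. Ncapg2 (5.03 ± 1.69), Ncapg (4.63 ± 3.19) and Ncapd3 (4.63 ± 2.03) were lowest and could not be ordered. These SDs are wide because of batch 3, and neighbours were therefore compared within libraries.

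In KO, Ncaph2 (26.4 ± 4.12 CPM per kb, SD, n = 3) stood above Top2a (11.7 ± 10.3) in 3 of 3 libraries. Top2a and Smc4 (9.39 ± 4.85) were not separated, and Smc2 (7.93 ± 4.62) was below Smc4 in 3 of 3. The other 6 genes, from Ncapd2 (3.54 ± 3.13) to Ncapg (2.15 ± 1.54), did not differ from their neighbours among the 6 beyond the spread, and Ncapd2 was below Smc2 in 3 of 3 libraries. By group means, all other condensin subunits except Ncaph2 were lower per kilobase than both Smc2 and Smc4, in KO and in WT.

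Across the 6 libraries, the log2 levels of 9 genes followed the mean of the other members with Pearson's r of 0.922 (Mki67) to 0.993 (Ncapg), and Ncaph2 with 0.762. The libraries share batches, so these are descriptions with no test. Among tested genes outside the group, Ap1g2 (r = 0.998), Prpf4 (0.998), Timeless (0.997), Ovol2 (0.996) and Ccnf (0.995) were most like the mean profile of the 10 over the same 6 libraries. That profile already holds the fall in KO, so their own log2 fold changes are given without a test. These were −1.03 for Timeless, which acts at replication forks, −0.74 for Ccnf, the F-box protein cyclin F, −0.41 for Ap1g2, −0.30 for Prpf4 and −0.86 for Ovol2.

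Lists of related genes were read against the same background of 1.95% lower and 2.17% higher. At an unadjusted p under 0.05, edgeR gave 0 higher genes for cohesin, SMC5/6, topoisomerases and licensing. It gave 1 each for the partners and for the promoter regulators, and DESeq2 called 0 higher in all 6 lists. Lower genes at that unadjusted p numbered 4 of 17 for cohesin, 3 of 8 for SMC5/6 and 0 of 7 for topoisomerases. They numbered 9 of 14 for partners, 8 of 10 for licensing and 4 of 20 for promoter regulators, against 8.09% of all tested genes. In that order, DESeq2 called 3, 1, 0, 8, 8 and 2 lower, against 3.38% of the genes it tested. In cohesin, the ring that holds sister chromatids together, and its regulators, 3 of 17 tested genes fell and 0 rose, with a median log2 fold change of −0.19. The 3 were Esco2, an acetyltransferase that establishes cohesion (−1.16 ± 0.21, SE, edgeR adjusted p = 0.014), Cdca5, or sororin (−1.19 ± 0.24, adjusted p = 0.023), and Sgo1, shugoshin, which protects centromeric cohesin (−1.40 ± 0.33, adjusted p = 0.043). The ring subunits did not pass, with log2 fold changes of −0.12 for Smc1a, −0.44 for Smc3 and −0.16 for Rad21, and the highest value was 0.07 for the loader subunit Mau2. Cdca5 lost its call without batch 1 and without batch 2, and Sgo1 without batch 1. In the SMC5/6 complex, which acts in DNA repair, Smc6 fell (−0.74 ± 0.14, adjusted p = 0.019, lost without batch 1), 1 of 8 tested, with a median of −0.23. Its partner Smc5 was at −0.32 (adjusted p = 0.28), and Nsmce2 was highest at 0.25.

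Among other topoisomerases and the enzymes that repair their DNA adducts, 0 of 7 passed in either direction by edgeR, by DESeq2 or at an unadjusted p under 0.05. The median was 0.01. Top2b, the paralog of Top2a, had 274 CPM on average in KO and 312 in WT (log2 fold change −0.19 ± 0.11, SE, edgeR adjusted p = 0.43). Tdp1 was lowest (−0.73) and Top3b highest (0.16).

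Of 14 tested partners and regulators of condensin and Ki-67, 6 fell and 0 rose, with a median of −1.06. Cdca2, which encodes Repo-Man and carries a protein phosphatase to chromosomes at mitotic exit, fell by 1.55 ± 0.22 (SE, n = 3 pairs, edgeR adjusted p = 0.0051). Kif4, a chromokinesin that binds condensin, fell by 1.35 ± 0.22 (adjusted p = 0.0097). Cdk1 (−1.09 ± 0.13, adjusted p = 0.0022) and Plk1 (−1.10 ± 0.26, adjusted p = 0.045), kinases that phosphorylate condensin, fell too. So did the Cdk1 partner Ccnb1 (−1.30 ± 0.28, adjusted p = 0.030) and Cdca8, or borealin (−1.32 ± 0.16, adjusted p = 0.0027). Aurkb (−1.16, adjusted p = 0.071), Birc5 (−1.03, adjusted p = 0.054) and Incenp (−0.75, adjusted p = 0.11), which sit with borealin in the chromosomal passenger complex, did not pass. Each of them was lower at an unadjusted edgeR p under 0.05. Kmt5a, the H4K20 methyltransferase whose mark condensin II can bind, was highest at 0.45 ± 0.13 (adjusted p = 0.098), and Nifk, which binds the Ki-67 forkhead-associated domain, stood at 0.15. Plk1 lost its call without batch 1 and without batch 2, and Ccnb1 without batch 2.

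Of 10 tested genes of replication licensing, a step before mitosis, with Pcna, 8 fell and 0 rose, with a median of −0.88. Cdc6, which loads the helicase at origins, fell by 1.68 ± 0.33 (SE, n = 3 pairs, edgeR adjusted p = 0.022), and Gmnn, geminin, fell by 1.15 ± 0.17 (adjusted p = 0.0072). All 6 subunits of the MCM helicase fell, from Mcm7 (−0.52 ± 0.13, adjusted p = 0.049) to Mcm6 (−1.19 ± 0.12, adjusted p = 0.0011). Mcm5 (−1.08) and Mcm3 (−1.15) were near Mcm6, and Mcm2 (−0.67) and Mcm4 (−0.62) near Mcm7. Pcna (−0.26, adjusted p = 0.34) and Cdt1 (−0.38, adjusted p = 0.51) did not pass. Without batch 1, 5 genes remained, and without batch 2, 4 genes remained, with Mcm2, Mcm4 and Mcm7 lost in both cases and Cdc6 in the second.

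Of 20 tested genes for factors that act on such promoters (E2F, MuvB, B-MYB, FOXM1, pocket proteins and NF-Y), 1 fell and 0 rose, with a median of −0.25. At an unadjusted p under 0.05, 4 were lower and 1 higher (8.09% and 8.66% of all tested genes), and DESeq2 called 2 lower and 0 higher (3.38% and 3.98%). Rbl1, the pocket protein p107 of DREAM, fell by 0.67 ± 0.14 (SE, n = 3 pairs, edgeR adjusted p = 0.026), a call lost without batch 1 and without batch 2. E2f7, an E2F repressor, was lowest (−1.42 ± 0.48, adjusted p = 0.15) and passed with batch 3 left out. The MuvB subunit Lin52 was highest (0.49 ± 0.34, adjusted p = 0.55). Mybl2, or B-MYB, was at −1.17 (adjusted p = 0.064) and Foxm1 at −0.15 (adjusted p = 0.86). The plot of gene lists shows all tested genes of each.

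**Figure D4:**
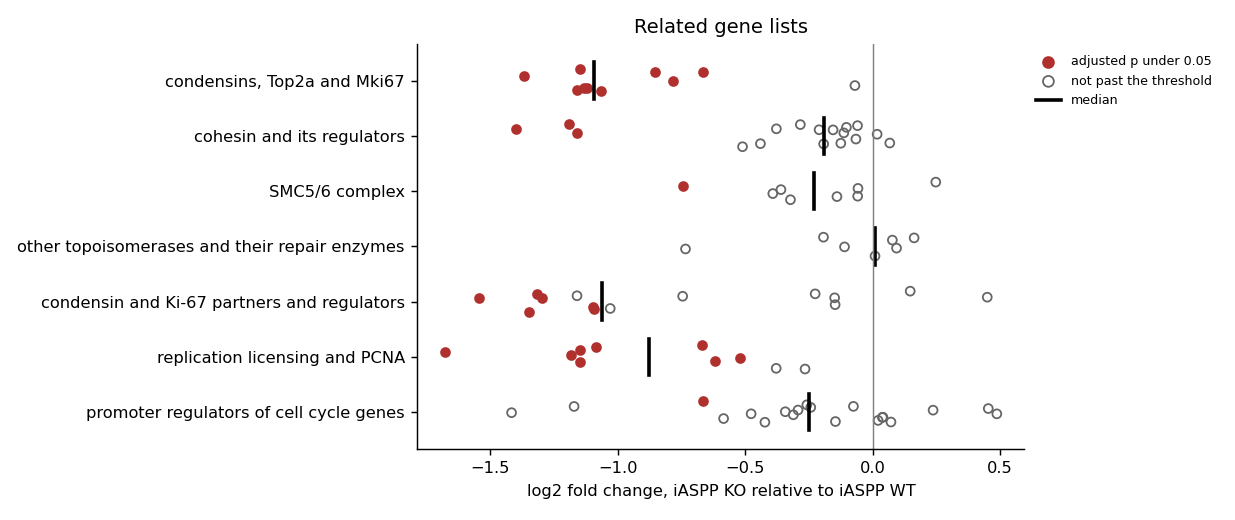
Log2 fold change, iASPP KO relative to iASPP WT, of each tested gene of 7 lists, with genes past an adjusted p of 0.05 filled in red, others open, and list medians as black bars. The medians are −1.09 for the condensins, Top2a and Mki67, −1.06 for partners and regulators and −0.88 for replication licensing, against 0.01 for other topoisomerases.

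Markers of other cells were measured beside these results. Fibroblast genes (Col1a1, Col1a2, Col3a1, Dcn, Lum and Pdgfra) summed to 36.7 to 454 CPM in KO and 33.7 to 669 CPM in WT, and 2 of 6 were lower in KO, Col1a2 (log2 fold change −0.55, edgeR adjusted p = 0.043) and Col3a1 (−0.87, adjusted p = 0.027). The fibroblast sum changed in KO by 0.12, 0.23 and −0.56 on the log2 scale in batches 1, 2 and 3. Col1a2 (−0.45, −0.72 and −0.47) and Col3a1 (−0.43, −1.44 and −0.74) were lower in each batch. Pdgfra (1.29, 1.60 and −0.42), Col1a1 (0.18, 0.05 and −0.97), Dcn (−0.61, 0.49 and 0.02) and Lum (1.01, −1.08 and −1.49) changed sign between batches. Lum had 2 counts in KO and 0 in WT in batch 1. Leukocyte genes (Ptprc, Cd68, Csf1r, Adgre1, Cd74 and Cd3e) summed to 20.6 to 67.6 CPM in KO and 14.0 to 57.9 CPM in WT. Their sum changed in KO by 0.56, 0.22 and 0.55 on the log2 scale in batches 1, 2 and 3. Of 4 tested genes, 1 was higher, Csf1r (1.11, adjusted p = 0.021). Cd68 averaged 29.8 CPM in KO and 27.1 in WT, Ptprc averaged 0.932 and 1.10, and Cd3e was at 0 in every library. Of 5 suprabasal keratinocyte genes, which mark cells that have left the cycle, Krt10 (−1.31, adjusted p = 0.033) and Flg (−0.89, adjusted p = 0.043) were lower. Krt1, Ivl and Lor did not pass (DESeq2 called Flg lower and Ivl higher and gave Krt10 an adjusted p of 0.14). The 5 summed to 201 to 1296 CPM in KO and 226 to 1542 CPM in WT. Krt1 was lowest in batch 3 in both groups, with 1110, 365 and 140 CPM in KO and 1264, 620 and 136 CPM in WT. Melanocyte genes, 0 of 4 past the threshold by edgeR or DESeq2 or at an unadjusted p under 0.05, summed to 254 to 721 CPM in KO and 229 to 740 CPM in WT. Endothelial genes summed to 2.34 to 11.99 CPM in KO and 2.16 to 5.17 CPM in WT. Leaving out at least 1 batch ended the calls of Krt10, Csf1r, Col1a2 and Col3a1, and robust dispersion those of Krt10 and Flg (adjusted p = 0.16 and 0.066). The part of these cells in the falls of the 9 genes, or in their high levels in batch 3, was not tested.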

How the data were processed

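The authors deposited raw counts of reads per gene name, not normalised, made by trimming with Cutadapt 2.10, aligning with STAR 2.7.3 to mm10 and counting exonic reads by strand with featureCounts 2.0.0 (GENCODE vM25), per the labels and the study's methods. A deposited table of the authors' own comparison (fold changes and p values) was not used. All 6 columns of counts were used. Counts were tested in R 4.3.3 with edgeR 4.0.16 (filterByExpr by condition, TMM, quasi-likelihood test with batch and condition, Benjamini-Hochberg over 14916 genes). The log2 fold changes within a batch are of CPM ratios, with 95% exact counting intervals that cover counting error only. DESeq2 1.42.0 and other scalings, filters and left-out batches were alternatives. The fit was tested on simulated data.

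Libraries held 20202517 to 25157117 counts, where 3 counts equal 0.119 to 0.148 CPM. Replicates differed beyond sampling noise. The labels give the same batch to same-numbered KO and WT libraries, and their deviations from the group means correlated at 0.401, 0.525 and 0.669 over 12401 genes. The labels do not say whether batches are separate animals, so p values apply to these batches only. With batch in the model, they measure how the difference between KO and WT varied among batches, not how levels did. For each gene, edgeR drew part of its estimate of that variation from the other tested genes.

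The members and gene lists were chosen with earlier results of these data known. The text names all members, genes of each list past the threshold and its extremes in both directions, the 5 genes most like the member profile and cell type markers. A gene of the list of partners and regulators is not reported here and was left out of its counts. Smc1a, Smc3, Rad21, Smc5, Aurkb, Birc5, Incenp, Nifk, Top2b, Pcna, Cdt1, Mybl2 and Foxm1 were added after their values were seen. Windows of 42 bases were matched in GENCODE vM21 transcripts of the same build.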

Additional observations from a re-analysis of the deposited data

How the results depend on the processing

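The count of 9 genes lower and 0 higher was 9 and 0 under DESeq2, DESeq2 size factors, upper-quartile scaling, both filters on low counts, robust dispersion and without the 20 most abundant genes. Leaving out a batch gave 5 to 9 lower and 0 higher. Without the replicate block (no batch term) 0 were lower, and all 10 log2 fold changes stayed negative, with adjusted p values of 0.97 or more. Scaling moved the median of all genes by less than 0.1. Of the other named genes, Nsmce2 (0.25) ranged from −0.011 to 0.39 with a batch left out and turned sign without batch 3, and Kmt5a passed (adjusted p = 0.048) with no filter beyond 1 count. Robust dispersion ended the calls of Krt10 and Flg, and DESeq2 that of Krt10. Over all genes, 291 were lower and 323 higher, against 491 and 624 with no filter beyond 1 count, 151 and 169 without batch 1, 117 and 174 without batch 2, 662 and 793 without batch 3, 0 and 0 without batch in the model (331 lower at an unadjusted p under 0.05), and 410 and 483 with DESeq2. Left-out batches leave 2 pairs, and 3 pairs limit what any comparison here can show.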
